A study of Mus musculus with 41 samples.

Results

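Cdkn1a and 9 other genes that p53 is known to switch on were followed through mouse spermatogonial cells with and without the homeobox transcription factor RHOX10. The 10 genes are Cdkn1a, Mdm2, Ccng1, Bax, Phlda3, Trp53inp1, Sesn1, Sesn2, Zmat3 and Aen, out of 55536 genes in each count table. They are established p53 targets taken by symbol, and they were chosen with earlier results of these data known. Cdkn1a in particular was selected on its measured difference between vectors in cultured cells, averaged over 0.5 to 8 h. For that reason the values at 0.5 to 8 h are given as a description. Libraries at 0 h may share cell populations with the later ones, so the 0 h values of Cdkn1a are a description too. Tests are kept to the other 9 genes at 0 h and in their change with time, and to sorted germ cells.

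The protein p53 is a transcription factor that cells hold at a low level until DNA damage or another stress stabilises it. It binds pairs of a short repeated DNA element and raises genes that halt the cell cycle, repair DNA, temper growth signalling or start apoptosis. Cdkn1a encodes p21, an inhibitor of cyclin-dependent kinases, and p21 in turn keeps the DREAM repressor complex on cell cycle genes. Mdm2 encodes the ubiquitin ligase that marks p53 for breakdown, so that p53 raises its own inhibitor. In the testis, p53 is best known for its part in the death of germ cells after irradiation.

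The study holds 41 C57BL/6 mouse samples in 3 assays. For RNA-seq, testis germ cells were sorted for an OCT4-eGFP reporter from animals labelled wild-type (4 libraries) or Rhox10-null (4 libraries), and each library pooled 3 animals, whose age the labels do not give. iSLAM-seq, a 3′ end RNA count made with the SLAM-seq protocol after a factor is switched on, used germline stem (GS) cells cultured from neonatal (P0-P1) testes. In these cells endogenous Rhox10 had been knocked down with an shRNA lentivirus in both arms and the cells had been sorted on GFP. One arm carried a Rhox10-ERT2-mCherry lentivirus (called Rhox10) and the other the ERT2-mCherry empty vector (called Ctrl). ERT2 is a receptor domain that 4-hydroxytamoxifen activates. Both arms were sampled at 0, 0.5, 1, 2, 4 and 8 h, with 2 libraries per vector and time. CUT&Tag, in which an antibody guides a transposase to the DNA around its target, had 3 libraries each of RHOX10, Ctrl and IgG. The RHOX10 and IgG libraries used knockdown cells with HA-tagged Rhox10, and the Ctrl libraries used knockdown cells with the HA empty vector. The labels do not say whether the time points of a vector came from separate transductions, so libraries at 0 h and later may share a cell population. The p-values then measure only the spread between these libraries, which may be technical.

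Some features of the libraries bear on every value below. RNA-seq libraries held 6602089 to 8278887 counts and iSLAM-seq libraries 9419615 to 12645845. Rhox10 itself had 3 to 10 counts in libraries labelled wild-type and 4 to 11 in those labelled null, so its level did not separate the genotypes. In GS cells it was at 34.0 to 46.7 CPM (a count scaled to library size after TMM normalisation) in the 12 Rhox10 libraries, including those at 0 h, and at 0.202 to 2.42 CPM in the 12 Ctrl libraries. The 2 Ctrl libraries at 0.5 h differed from each other far more than other pairs did, with a chi-square per degree of freedom of 24.9 where the other 11 iSLAM-seq pairs had 2.57 to 4.45. Null replicate 4 in RNA-seq stood apart from the other null libraries, at 4.66 to 5.28 against 1.42 to 1.62 among those. Several member and list counts that rest on these libraries are also given without them.

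Matches to the DNA element that p53 is known to bind are shown first. The p53 response element was searched as 2 decamers, each with C at its position 4 and G at its position 7, with a spacer of at most 1 base and at most 1 mismatch in all, within 2 kb of each GENCODE M21 gene start. Each match covers both strands, since the element reads alike in either direction. Of the 10 genes, 4 held such a pair, against 1.55% of 21938 protein-coding genes. The 5 matches follow, 5′ to 3′ on the strand of the gene, with the 4 central letters of each decamer in capitals.
Cdkn1a, 48 bases upstream: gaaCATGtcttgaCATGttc
Trp53inp1, 1319 bases upstream: aaaCATGtccaggaCTAGcct
Ccng1, 170 bases upstream: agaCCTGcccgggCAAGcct
Ccng1, 356 bases downstream, in an intron: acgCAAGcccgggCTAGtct
Zmat3, 1664 bases downstream, in an exon: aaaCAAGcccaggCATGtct
In GRCm38 these lie at chr17:29090928-29090947 (plus strand), chr4:11155112-11155132 (plus strand), chr11:40755462-40755481, chr11:40754936-40754955 and chr3:32364331-32364350 (the last 3 on the minus strand). The Trp53inp1 and Zmat3 pairs had 0 mismatches and the others 1. Counted from a further RefSeq start of Cdkn1a, its pair lies at -2841. A match of letters is a description and does not show that p53 sat there, and these data hold no p53 binding. The other 6 genes had no match under these settings in this window.

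Cdkn1a was about as far apart between the vectors before any inducer as after it. At 0 h the Ctrl libraries were at 557 and 563 CPM and the Rhox10 libraries at 1088 and 1048 CPM. Both Rhox10 values lay far above both Ctrl values, a difference of 0.93 on the log2 scale (SE 0.0501, 1.91-fold). Cdkn1a was selected on later libraries that may share cell populations with these, so this difference is a description. Over all 6 times Ctrl ran from 498 to 652 CPM with a median of 571, and Rhox10 from 990 to 1248 CPM with a median of 1105, so that no Rhox10 library reached down to any Ctrl library. From 0.5 to 8 h the difference took the values 0.94, 0.88, 0.95, 1.02 and 0.81. Their mean was 0.92 (SE 0.0224), and the difference at 8 h less that at 0 h was -0.13 (SE 0.0703). Within Ctrl, Cdkn1a was at 557 and 563 CPM at 0 h and at 498 and 537 CPM at 0.5 h. By 8 h it had reached 652 and 650 CPM, a rise from 0 h of 0.22 (SE 0.0499). The Ctrl libraries at 0.5 to 8 h entered the contrast on which Cdkn1a was selected, so this course is a description too. As part of that description, the edgeR F-test over time in Ctrl gave adjusted p = 0.0014 with TMM and 0.644 scaled to 16 germline genes. In Rhox10 the lowest libraries were those at 0.5 h, 990 and 999 CPM, and the highest those at 4 h, 1226 and 1248 CPM.

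**Figure D1:**
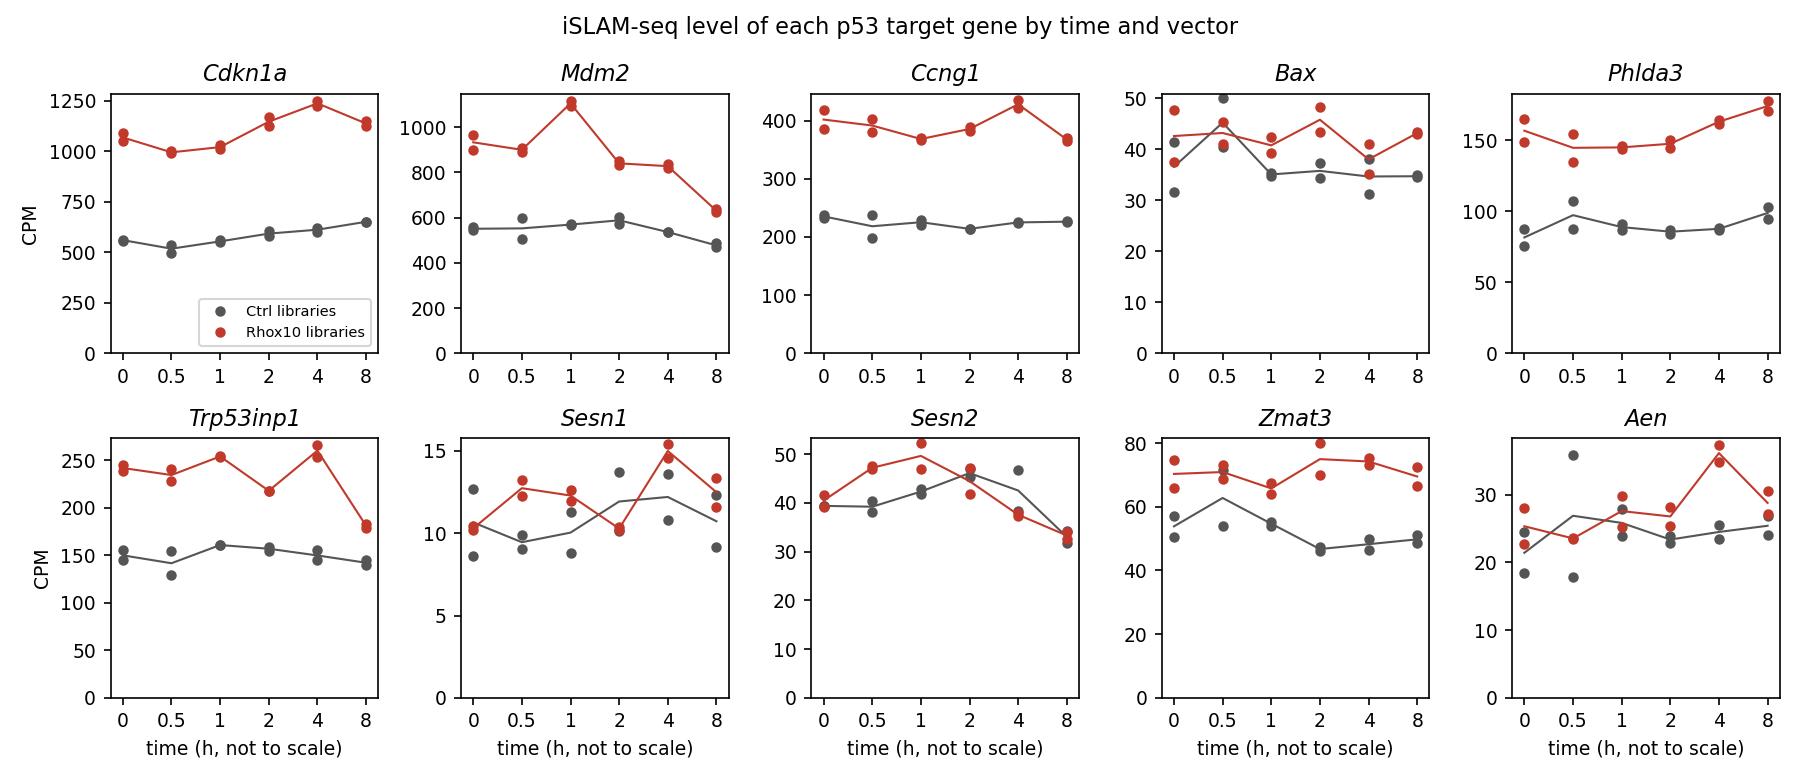
Level of each of the 10 genes in iSLAM-seq, as CPM on a linear axis from 0, against time (equally spaced, not to scale); each point is 1 library (grey Ctrl, red Rhox10) and lines join the means of 2. For Cdkn1a the red points sit between 990 and 1248 CPM and the grey ones between 498 and 652 at every time including 0 h, while the lines for Mdm2 draw closer by 8 h.

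Mdm2, the inhibitor of p53 that p53 raises, was also higher with Rhox10 at 0 h, and its difference narrowed. At 0 h it had 544 and 557 CPM in Ctrl and 899 and 967 CPM in Rhox10, with no overlap. That was a difference of 0.76 (SE 0.0628, edgeR quasi-likelihood adjusted p = 1.83e-08 over 20642 genes). At 1 h the Rhox10 libraries peaked at 1094 and 1117 CPM beside 568 and 570 CPM in Ctrl. At 8 h they had come down to 637 and 623 CPM, still above the 486 and 468 CPM of Ctrl. The difference at 8 h was thus smaller than at 0 h by 0.36 on the log2 scale (log2 change -0.36, SE 0.0886, edgeR adjusted p = 0.0275). That call was lost, at adjusted p up to 0.22, when any 1 of 22 of the 24 libraries was left out (all but those of Ctrl at 0.5 h), while the narrowing stayed between -0.38 and -0.28. It was also lost by library totals (-0.29, edgeR adjusted p = 0.0854) and when scaled to germline genes (-0.33, edgeR adjusted p = 0.316). Mdm2 fell in both arms from 0 to 8 h, by 0.57 in Rhox10 (SE 0.0627, edgeR adjusted p = 1.18e-06) and by 0.21 in Ctrl (SE 0.0628, edgeR adjusted p = 0.0499). Its peak at 1 h came at a time when Cdkn1a in the same libraries was at 1012 and 1029 CPM, below its own level at 0 h.

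Ccng1, Phlda3 and Trp53inp1 stood as far apart between the vectors as Mdm2 did. Ccng1, which encodes cyclin G1, a partner of the phosphatase PP2A, had 238 and 232 CPM in Ctrl and 385 and 418 CPM in Rhox10 at 0 h. That was a difference of 0.77 (SE 0.0721, edgeR adjusted p = 1.21e-07), and at the 5 later times it lay between 0.70 and 0.93. Phlda3, whose product competes with the kinase AKT for membrane lipids, had 87.4 and 75.8 CPM in Ctrl and 165 and 149 CPM in Rhox10 at 0 h. Its difference was 0.94 (SE 0.0995, edgeR adjusted p = 7.18e-07), and later 0.57 to 0.90. Trp53inp1, which encodes a stress protein that works in apoptosis and autophagy, had 155 and 145 CPM in Ctrl and 238 and 245 CPM in Rhox10 at 0 h. It differed by 0.69 (SE 0.0782, edgeR adjusted p = 2.02e-06), then by 0.35 to 0.80. For each of these 3 genes every one of the 12 Rhox10 libraries lay above every one of the 12 Ctrl libraries. The closest approach was in Trp53inp1, where the Rhox10 libraries at 8 h had 179 and 183 CPM and the highest Ctrl library, at 1 h, had 161 CPM.

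The remaining 5 genes differed less or not detectably at 0 h. Zmat3, an RNA-binding zinc finger protein that acts on splicing, had 57.3 and 50.5 CPM in Ctrl and 74.8 and 65.8 CPM in Rhox10, a difference of 0.39 (SE 0.121, edgeR adjusted p = 0.0416) that is close to the threshold. Leaving out any 1 of 22 of the 24 libraries (all but those of Ctrl at 0.5 h) ended the Zmat3 call, with edgeR adjusted p of 0.0525 to 0.316, as did fitting with no filter on low counts (edgeR adjusted p = 0.0572). In Zmat3 1 Ctrl library at 0.5 h, replicate 2 with 71.6 CPM, reached into the range of the Rhox10 libraries, 64.1 to 79.9 CPM, and all others stayed below it. Bax, the pore-forming protein of mitochondrial apoptosis, had 41.5 and 31.7 CPM in Ctrl and 47.7 and 37.5 CPM in Rhox10. Its values overlapped, with a difference of 0.22 (SE 0.151, edgeR adjusted p = 0.416). Aen, a nuclease that promotes apoptosis, had 18.4 and 24.4 CPM in Ctrl and 22.6 and 28.0 CPM in Rhox10, a difference of 0.24 (SE 0.216, edgeR adjusted p = 0.559). Sesn1 and Sesn2 encode sestrins, which restrain the growth kinase complex mTORC1 under stress. Sesn1 had 12.7 and 8.62 CPM in Ctrl and 10.2 and 10.4 CPM in Rhox10, a difference of -0.05 (SE 0.220, edgeR adjusted p = 0.927). Sesn2 had 39.3 and 39.5 CPM in Ctrl and 41.7 and 39.2 CPM in Rhox10, a difference of 0.04 (SE 0.117, edgeR adjusted p = 0.888). Bax, Aen, Sesn1 and Sesn2 thus overlapped between the vectors at 0 h, and Sesn1, with about 10 CPM, had by far the fewest counts.

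The members were chosen with results of these data known, and the 0 h libraries may share cell populations with those that drew attention to Cdkn1a, so the counts over the list that follow are descriptions and no support. Counted together, 6 of the 10 genes were higher with Rhox10 at 0 h and 0 were lower, where 6.56% of all 20642 genes tested were higher and 4.32% lower by the same edgeR call. The count was also 6 higher and 0 lower without the 0.5 h libraries (all genes 2054 and 1710 of 20362). It was the same under scaling to 16 germline genes, which turned the split of all genes from 1354 higher and 892 lower to 3141 and 119. The 6 genes, Cdkn1a, Mdm2, Ccng1, Phlda3, Trp53inp1 and Zmat3, had both Rhox10 libraries above both Ctrl libraries, against 26.3% of all genes in that direction, and 0 genes had both below, against 25.4%. The median difference of the 10 was 0.54, and that of all genes 0.00. Over 0.5 to 8 h the averaged difference of 7 of the 10 was past the same threshold upward and that of 0 downward (all genes 18.7% and 18.4%, or 3859 and 3795 genes, which became 7771 and 983 when scaled to germline genes). This is the contrast in which Cdkn1a was noticed, so nothing is read from that count, which was 10 and 0 when scaled to germline genes. Without the 0.5 h libraries it was 8 and 0 (all genes 4126 and 3880 of 20362). The averaged values were 0.64 for Mdm2, 0.81 for Ccng1, 0.76 for Phlda3, 0.60 for Trp53inp1, 0.45 for Zmat3, 0.19 for Bax, 0.20 for Sesn1, 0.17 for Aen and 0.06 for Sesn2. Across all 12 libraries of each vector, Cdkn1a, Mdm2, Ccng1, Phlda3 and Trp53inp1 did not overlap, all 5 higher with Rhox10, where 2.79% of all genes were wholly higher and 2.47% wholly lower. Most of these libraries are the ones on which Cdkn1a was selected, so nothing is read from that count either.

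Change with time was tested over the 9 genes other than Cdkn1a. The difference between the vectors changed from its value at 0 h in 1 of them, Mdm2 (edgeR F-test over the 5 later times, adjusted p = 0.00441), where 2.39% of all genes changed. That call was kept in all 24 fits that left out 1 library and lost when scaled to germline genes (edgeR F-test adjusted p = 0.264). At 8 h against 0 h it was again Mdm2 alone, in the lower direction, where 0.872% of all genes went higher and 1.7% lower (180 and 350 genes, and 253 and 264 by library totals). These contrasts subtract the 0 h libraries and so share them with the 0 h difference. Trp53inp1 narrowed by a similar amount, -0.34 (SE 0.111), but did not pass (edgeR adjusted p = 0.117). Without the 0.5 h libraries it did, at -0.33 with edgeR adjusted p = 0.00947. In Ctrl, Mdm2 moved with time (edgeR F-test adjusted p = 0.0415), a call lost when any 1 of 20 of the 24 libraries was left out. Cdkn1a is left out of this count, as its course there is a description. Of the other 9 genes only Mdm2 moved, where 5.74% of all genes moved with time. In Rhox10, 3 of the 9 did, where 9.44% of all genes did: Mdm2 (edgeR F-test adjusted p = 9.66e-08), Trp53inp1 (edgeR F-test adjusted p = 0.000467) and Sesn2 (edgeR F-test adjusted p = 0.0102, lost without Rhox10 1 h replicate 1 or either Rhox10 library at 8 h). Sesn2 in Rhox10 was highest at 1 h, 52.3 and 47.0 CPM, and lowest at 8 h, 32.6 and 34.1 CPM, while Ctrl was at 34.2 and 31.8 CPM at 8 h. The Ctrl pair at 0.5 h weighs on these counts. Without the 0.5 h libraries of both vectors, the difference changed in 2 of the 9 (1496 of all 20362 genes, beside 494 of 20642 with them). In that fit Ccng1 (edgeR F-test adjusted p = 0.00129) and Phlda3 (edgeR F-test adjusted p = 0.0244) also moved with time in Rhox10. That made 5 of the 9, where 4262 of all 20362 genes moved, beside 1948 of 20642 with those libraries.

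Trp53, which encodes p53, did not show the difference of its targets at the RNA level. It had 27.3 and 25.9 CPM in Ctrl and 25.7 and 28.3 CPM in Rhox10 at 0 h, a difference of 0.02 (SE 0.178, edgeR adjusted p = 0.966), and the libraries overlapped. RNA counts do not measure p53 protein. Mdm4, the partner of MDM2 in holding p53 down, differed by -0.18 (SE 0.0833, edgeR adjusted p = 0.203). At 0 h 6.56% of all genes were higher and 4.32% lower (2054 and 1710 of 20362 genes without the 0.5 h libraries, 3141 and 119 of 20642 when scaled to germline genes). Among 15 genes for p53, its relatives and its regulators, 2 were higher and 1 lower at 0 h. The counts were 2 and 2 without the 0.5 h libraries, and 3 higher and 0 lower when scaled to germline genes. The one lower was Trp53bp1, a DNA break protein that binds p53 (-0.61, SE 0.128, edgeR adjusted p = 0.00259). Cdkn2a, whose ARF product inhibits MDM2, was higher (0.66, SE 0.167, edgeR adjusted p = 0.0115). The other call, Trp63, was at 0 counts in both Ctrl libraries and at 5 and 9 counts in the Rhox10 libraries, too few for a fold change.

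Some further p53 targets were higher with Rhox10 at 0 h as well. Of 28 listed, 27 were tested, and 13 were higher and 0 lower, with a median difference of 0.48. Of all genes, 6.56% were higher and 4.32% lower. The counts were 17 and 1 of 26 without the 0.5 h libraries (all genes 2054 and 1710 of 20362). They were 20 and 0 with a median of 0.74 when scaled to germline genes (all genes 3141 and 119). Every gene list here was chosen with results of these data known, so its counts are descriptions and no support. The 13 included Psrc1, a spindle protein (0.97, SE 0.116, edgeR adjusted p = 3.82e-06), and Perp, a membrane protein of apoptosis and desmosomes (0.86, SE 0.125, edgeR adjusted p = 5.61e-05). Rps27l, a ribosomal protein variant, differed by 0.48 (SE 0.0698, edgeR adjusted p = 5.28e-05), and Ddit4, an inhibitor of mTORC1, by 0.78 (SE 0.0872, edgeR adjusted p = 1.61e-06). Btg2, an antiproliferative cofactor of mRNA decay, had 154 and 136 CPM in Ctrl and 273 and 256 CPM in Rhox10 (0.87, SE 0.103, edgeR adjusted p = 3.61e-06). Plk2, a stress-induced kinase, had 80.9 and 82.7 CPM in Ctrl and 161 and 157 CPM in Rhox10 (0.96, SE 0.126, edgeR adjusted p = 1.46e-05).

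In 4 of these genes the difference between the vectors was lower at 8 h than at 0 h. By 8 h Btg2 was at 83.1 and 85.0 CPM in Ctrl and at 65.3 and 66.7 CPM in Rhox10, so the order of the vectors had turned. Its difference had changed by -1.22 (SE 0.149, edgeR adjusted p = 1.43e-05). Plk2 came together at 51.5 and 48.8 CPM in Ctrl and 56.7 and 52.8 CPM in Rhox10, a change of -0.83 (SE 0.182, edgeR adjusted p = 0.0113). Bbc3 and Pmaip1, which encode the apoptosis activators PUMA and NOXA, changed by -0.93 (SE 0.214, edgeR adjusted p = 0.0177) and -0.82 (SE 0.203, edgeR adjusted p = 0.0295). Bbc3 in Rhox10 fell from 41.9 and 53.6 CPM at 1 h to 20.6 and 20.8 CPM at 2 h, and Btg2 from 287 and 276 CPM to 132 and 117 CPM. These 4 were the calls among the 27 at 8 h against 0 h, and 0 were higher, where 0.872% of all genes went higher and 1.7% lower. Scaled to germline genes Bbc3 did not pass (edgeR adjusted p = 0.0636), and by library totals Pmaip1 did not (edgeR adjusted p = 0.0558). Without the 0.5 h libraries all 4 passed (edgeR adjusted p from 2.61e-12 for Btg2 to 0.00441 for Bbc3), and 6 of 26 were called lower. Of all 20362 genes in that fit, 492 were called higher and 863 lower. Whether Cdkn1a differs from these genes in its change was not tested, and its own values at 8 h belong to its selection. Of 12 cell cycle genes known to be lowered through p21 and DREAM, 2 were lower and 0 higher at 0 h, where 4.32% of all genes were lower and 6.56% higher. Without the 0.5 h libraries the count was 6 and 0 (all genes 1710 lower and 2054 higher of 20362). Scaled to germline genes it was 0 and 0 (all genes 119 and 3141). The 2 were Mybl2, a cell cycle transcription factor (-0.91, SE 0.206, edgeR adjusted p = 0.0048), and Birc5, the mitotic protein survivin (-0.26, SE 0.0772, edgeR adjusted p = 0.0326). Beside the same 0 h shares of all genes, 2 of 6 other inhibitors of cyclin-dependent kinases were higher at 0 h. They were Cdkn2a as above and Cdkn2b (0.89, SE 0.235, edgeR adjusted p = 0.0147), which encodes p15.

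Markers of other cells moved between the vectors as well. Beside the 0 h counts that follow, 6.56% of all genes were higher and 4.32% lower. Those shares were 2054 and 1710 of 20362 genes without the 0.5 h libraries, and 3141 and 119 of 20642 when scaled to germline genes. Of 5 stromal and feeder cell markers, 4 were higher with Rhox10 at 0 h (5 without the 0.5 h libraries), their sum being 1540 and 1409 CPM in Ctrl and 1918 and 1971 CPM in Rhox10. Of 6 germ cell markers, 3 were lower (5 without the 0.5 h libraries, 1 when scaled to germline genes), with a sum of 1770 and 1783 CPM in Ctrl and 1483 and 1508 CPM in Rhox10. The 16 scaling genes include the markers Ddx4 and Dazl, so the scaled count is no check of the other. Of the 16, 7 were themselves called lower at 0 h and 0 higher. By 8 h the stromal sums had come closer, 1128 and 1075 CPM in Ctrl and 1191 and 1155 CPM in Rhox10. Between 0 h and 8 h the difference was called lower in 1 of the 5, where 1.7% of all genes were. The median change of the 5 was -0.28, and that of all genes -0.02. Dcn, a matrix proteoglycan gene, moved least of the 5 (-0.0024, SE 0.112, edgeR adjusted p = 0.998). The germ cell sums stayed apart at 8 h, 1936 and 1910 CPM in Ctrl and 1671 and 1606 CPM in Rhox10. In bulk RNA, fewer cells of a type and less RNA per cell cannot be told apart, and the part of these cells in the differences of the p53 targets was not tested. Of the other lists, the Sertoli marker Amh was at 0 in all 24 libraries, as were the Leydig markers Hsd3b1 and Insl3 and the erythroid marker Hbb-bt. Sums at 0 h in Ctrl and Rhox10 were 225 to 236 and 249 to 268 CPM for 5 Sertoli markers, 32.0 to 41.0 and 21.3 to 24.6 CPM for 4 endothelial markers and 19.9 and 20.6 to 20.9 CPM for 4 macrophage markers. Leydig sums were 9.85 to 12.6 and 9.36 to 9.51 CPM, and erythroid sums 1.86 to 2.31 and 0.202 to 0.364 CPM.

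**Figure D2:**
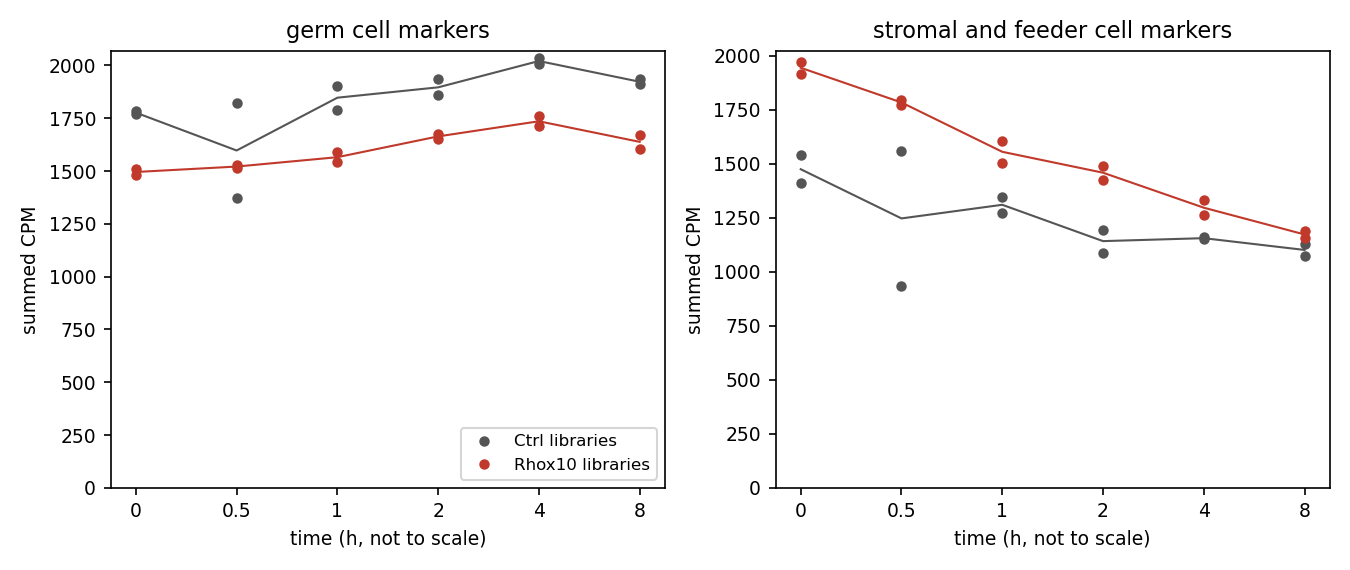
Summed CPM of 6 germ cell markers (left) and 5 stromal and feeder cell markers (right) in each iSLAM-seq library against time (equally spaced, not to scale), grey for Ctrl and red for Rhox10, lines joining means of 2. The stromal sums start at 1409 to 1540 in Ctrl and 1918 to 1971 in Rhox10 and approach each other by 8 h, and the 2 Ctrl libraries at 0.5 h lie far apart.

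The genes whose log2 CPM followed that of Cdkn1a most closely over the 24 iSLAM-seq libraries were named by Pearson's r among 12059 genes with a mean of at least 5 CPM. The 5 nearest were Nqo1, a quinone reductase (0.983), Col4a1, a basement membrane collagen (0.982), Ctsb, a lysosomal protease (0.982), Gsto1, a glutathione transferase (0.980), and Anxa5, a phospholipid-binding annexin (0.975). The libraries form 2 clusters by vector, and within them these r values were 0.525 to 0.889 in Ctrl and 0.354 to 0.902 in Rhox10. Nqo1 had a median of 18.3 CPM in Ctrl and 53.6 CPM in Rhox10. Of the other 9 p53 targets, Ccng1 ranked 20th (0.964) and Phlda3 40th (0.957), and the rest were farther off: Trp53inp1 333rd, Zmat3 646th, Mdm2 737th, Aen 2614th, Bax 2716th, Sesn1 2917th and Sesn2 5633rd. Mdm2 had r of 0.791 over all libraries but -0.412 within Ctrl and -0.545 within Rhox10. Ccng1 had -0.08 within Ctrl and 0.433 within Rhox10, so its likeness lay in the step between the vectors. These values are descriptions across libraries that share vector and cell source.

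In sorted germ cells Cdkn1a was scarce: libraries labelled wild-type had 2.86, 2.30, 4.58 and 2.85 CPM (15 to 27 counts) and those labelled null 2.29, 2.25, 3.48 and 3.50 CPM (17 to 29 counts). The groups overlapped throughout, with a difference of null less wild-type of -0.11 (SE 0.231, edgeR adjusted p = 0.728 over 13538 genes). Left-out libraries and other scalings moved its sign (0.09 without wild-type replicate 3, 0.23 by library totals, 0.77 when scaled to germline genes), so no direction is given. Per kilobase of exon, Cdkn1a at 0.886 ± 0.278 CPM per kb (SD, n = 4) in wild-type was the second lowest of the 10 genes. Only Zmat3 at 0.544 ± 0.0227 was lower, and Mdm2 at 4.42 ± 0.198 was the highest. Neighbours in that order from 1.34 (Aen) to 2.12 (Trp53inp1), namely Aen, Phlda3 and Ccng1, had SDs of 0.229, 0.275 and 0.357, as large as most of the steps between them.

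Of the 10 genes, 2 were higher and 3 lower in libraries labelled null by the edgeR call, where 18.6% of all genes were higher and 18.9% lower, shares near those of the 10. Under scaling to 16 germline genes all 10 were called higher, and by library totals 4 were called higher and 0 lower. Without that scaling, all 16 scaling genes were themselves called lower in null libraries. Zmat3 was higher, from 6.02, 6.44, 6.44 and 5.97 CPM to 11.7, 11.9, 9.25 and 11.4 CPM (0.83, SE 0.128, edgeR adjusted p = 1.36e-06). All 4 null values lay above all 4 wild-type values. Ccng1 had 7.82, 6.60, 8.65 and 5.83 CPM in wild-type and 8.19, 8.61, 10.2 and 9.15 CPM in null, higher by 0.34 (SE 0.134, edgeR adjusted p = 0.0444), with overlap. Trp53inp1 was lower, from 14.4, 12.3, 13.7 and 14.4 CPM to 8.41, 11.7, 8.77 and 10.2 CPM (-0.50, SE 0.112, edgeR adjusted p = 0.000382). Mdm2 was lower, from 23.3, 21.01, 22.5 and 22.9 CPM to 18.1, 19.6, 18.4 and 18.6 CPM (-0.27, SE 0.0785, edgeR adjusted p = 0.00603). Bax was lower, from 4.66, 4.76, 5.59 and 4.88 CPM to 4.15, 3.18, 3.72 and 3.50 CPM (-0.43, SE 0.175, edgeR adjusted p = 0.0469). In these 3 the groups did not overlap. Counted that way, 1 of the 10 was wholly higher (15.8% of all genes) and 3 wholly lower (16.4%). Without null replicate 4, the library that stood apart, Ccng1 (edgeR adjusted p = 0.0722) and Bax (edgeR adjusted p = 0.0841) no longer passed, and Zmat3, Trp53inp1 and Mdm2 did. With DESeq2, Mdm2 (adjusted p = 0.0683), Ccng1 (0.179) and Bax (0.164) did not pass, and by library totals Trp53inp1 did not (edgeR adjusted p = 0.239). Leaving out other libraries lost Bax in 6 further fits (all but null replicate 1) and Ccng1 in 4 (wild-type replicates 2 and 4, null replicates 2 and 3).

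The other 4 genes did not pass in sorted cells. Phlda3 had 2.31 to 3.31 CPM in wild-type and 1.59 to 2.40 CPM in null (-0.38, SE 0.240, edgeR adjusted p = 0.218). Aen had 6.24 to 9.48 CPM and 7.54 to 10.9 CPM (0.32, SE 0.136, edgeR adjusted p = 0.0619), and it passed without wild-type replicate 1 or null replicate 1. Sesn1 had 10.8 to 11.8 CPM and 11.7 to 13.3 CPM (0.11, SE 0.103, edgeR adjusted p = 0.424). Sesn2 had 8.74 to 10.3 CPM and 6.33 to 9.37 CPM, with null replicate 1 lowest (-0.18, SE 0.129, edgeR adjusted p = 0.265). All 4 overlapped between the genotypes. The median difference of the 10 genes was -0.15, and that of all genes 0.00.

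**Figure D3:**
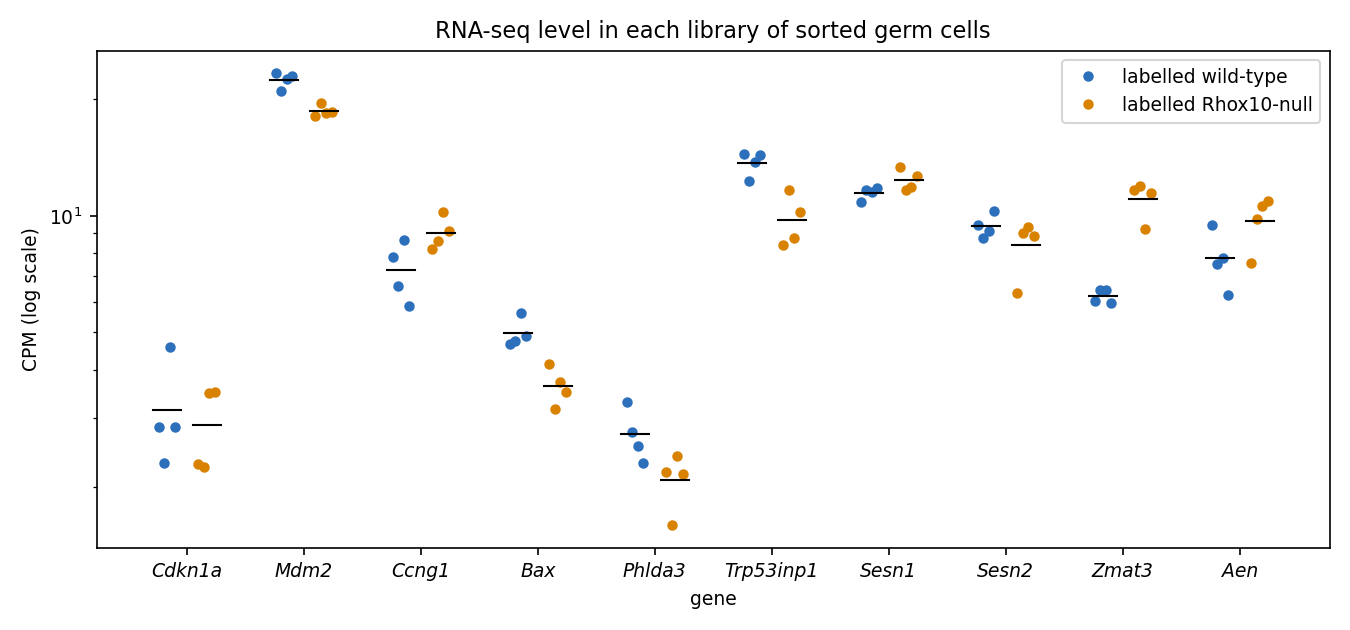
Level of each of the 10 genes in sorted germ cells, as CPM on a log axis, with 1 point per RNA-seq library (blue labelled wild-type, orange labelled Rhox10-null, n = 4 each) and a bar at the mean. Zmat3 is wholly higher in the null libraries, Mdm2, Bax and Trp53inp1 are wholly lower, and Cdkn1a lies between 2.25 and 4.58 CPM in both.

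**Figure D4:**
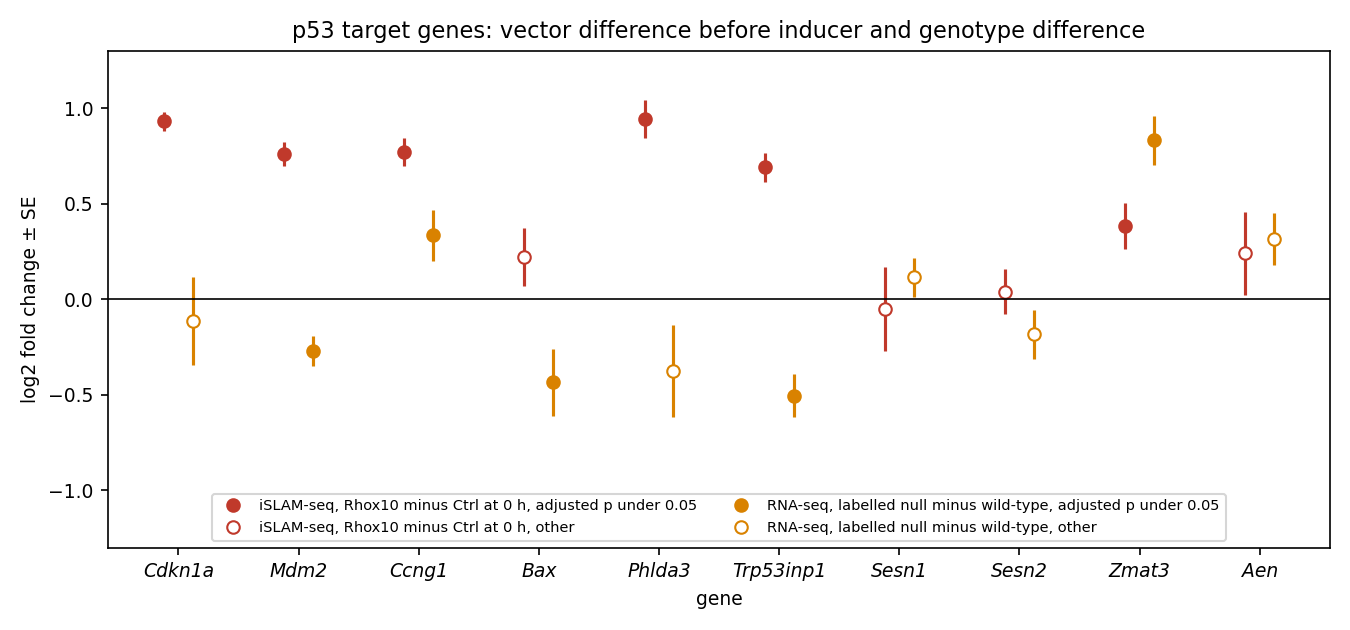
Log2 fold change with its SE for each gene, for Rhox10 less Ctrl at 0 h in GS cells (red) and for null less wild-type in sorted germ cells (orange), filled where the edgeR adjusted p is under 0.05. Of the 6 genes called at 0 h, all higher, Mdm2 and Trp53inp1 are called lower in the null libraries, and Ccng1 and Zmat3 are called higher.

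Cell type markers differed between the genotypes in sorted cells too. Of 6 germ cell markers, 5 were lower in null libraries (3 lower and 1 higher when scaled to germline genes), with sums of 198 to 202 CPM in wild-type and 91.1 to 97.3 CPM in null. The 16 scaling genes include the markers Ddx4 and Dazl, so the scaled count is no check of the other. All 5 stromal markers were higher (420 to 443 and 672 to 708 CPM), as were the 5 erythroid markers tested (1.09 to 3.73 and 59.5 to 65.2 CPM) and the 4 Leydig markers tested (32.0 to 33.8 and 44.7 to 53.3 CPM). Endothelial markers were higher in 3 of 4 (23.9 to 29.2 and 35.8 to 40.4 CPM), macrophage markers in 2 of 4 (11.5 to 12.9 and 14.9 to 18.7 CPM) and Sertoli markers in 1 of 4 tested (291 to 308 and 342 to 360 CPM). Without null replicate 4 each of these marker counts was the same. As in GS cells, bulk RNA cannot tell fewer cells of a type from less RNA per cell. The part of these marker differences in the values of the p53 targets was not tested. Scaling to the 16 germline genes put the median of all RNA-seq genes at 0.89 and library totals put it at 0.35, with 12180 genes called higher and 69 lower under the former and 7229 and 629 under the latter, beside 2518 and 2553. Relative to those medians Cdkn1a, at 0.77 and 0.23, lay below the median gene. In GS cells the germline scaling put the median of all genes at 0.26 at 0 h.

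Around these genes in sorted cells, Trp53 differed by 0.17 (SE 0.0999, edgeR adjusted p = 0.178). Beside the list counts that follow, 18.6% of all 13538 genes tested were higher and 18.9% lower. The lists were chosen with results of these data known, so their counts are descriptions. Among 13 tested of the 15 genes for p53 and its regulators, 1 was higher and 5 lower, but 12 and 0 when scaled to germline genes and 7 and 1 by library totals. The one higher was Mdm4 (0.24, SE 0.0565, edgeR adjusted p = 0.000771). The lower ones were Cdkn2a (-1.23), the kinase genes Atm (-0.31) and Chek1 (-0.33), the ubiquitin ligase gene Rchy1 (-0.55) and the phosphatase gene Ppm1d (-0.38). Of 22 further p53 targets tested, 9 were higher and 2 lower, with a median of 0.23, but 21 and 0 when scaled to germline genes and 12 and 0 by library totals. Among the 9 were Plk3, a stress kinase (0.99), Rrm2b, a subunit of ribonucleotide reductase (0.76), Apaf1, the apoptosome scaffold (0.49), and Btg2 (0.34). Eda2r (1.16) and Fdxr (0.31) were among them too. The lower ones were Xpc, a DNA damage sensor (-0.45), and Ddit4 (-0.24). Of the 12 cell cycle genes of the DREAM list, 7 were lower and 0 higher, led by Ccnb1, cyclin B1 (-0.72, SE 0.0955, edgeR adjusted p = 5.98e-08). When scaled to germline genes 11 were higher and 0 lower, and by library totals 3 and 1. Without null replicate 4 the regulators gave 1 higher and 4 lower, the further targets 9 and 1, and the DREAM list 0 and 7. In these libraries Cdkn1a itself did not differ detectably. Of 5 tested other kinase inhibitors, Cdkn1c, which encodes p57, was higher (0.98, SE 0.152, edgeR adjusted p = 1.54e-06) and Cdkn2a lower.

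RHOX10 peaks were read from the authors' deposited table of 5147 peaks, each listed for all 3 RHOX10 libraries, with the authors' own score and distance. Cdkn1a had no row in it. Within 3 kb of a start, 3 of the 10 genes had a peak, Sesn2, Mdm2 and Phlda3, where 19.8% of the genes tested in iSLAM-seq had one. The Sesn2 peak, chr4:132509657-132510626, was annotated to an exon at 315 bases from the start with a score of 246 in the authors' deposited table. The Mdm2 peak, chr10:117710194-117710997, lay in the 5′ UTR at 163 bases with a score of 192. The Phlda3 peak, chr1:135766018-135766646, lay in the 5′ UTR at 247 bases with a score of 105, under the table's median of 128. Zmat3 was also given a peak, chr3:32396748-32397297, which the authors' deposited table called intergenic at a distance of -31357. In GENCODE M21 the nearest protein-coding start to it was that of Pik3ca, with the centre of the peak at -649. Of the 3 genes with a near peak, Mdm2 and Phlda3 were higher with Rhox10 at 0 h, and Sesn2 was not called.

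**Figure D5:**
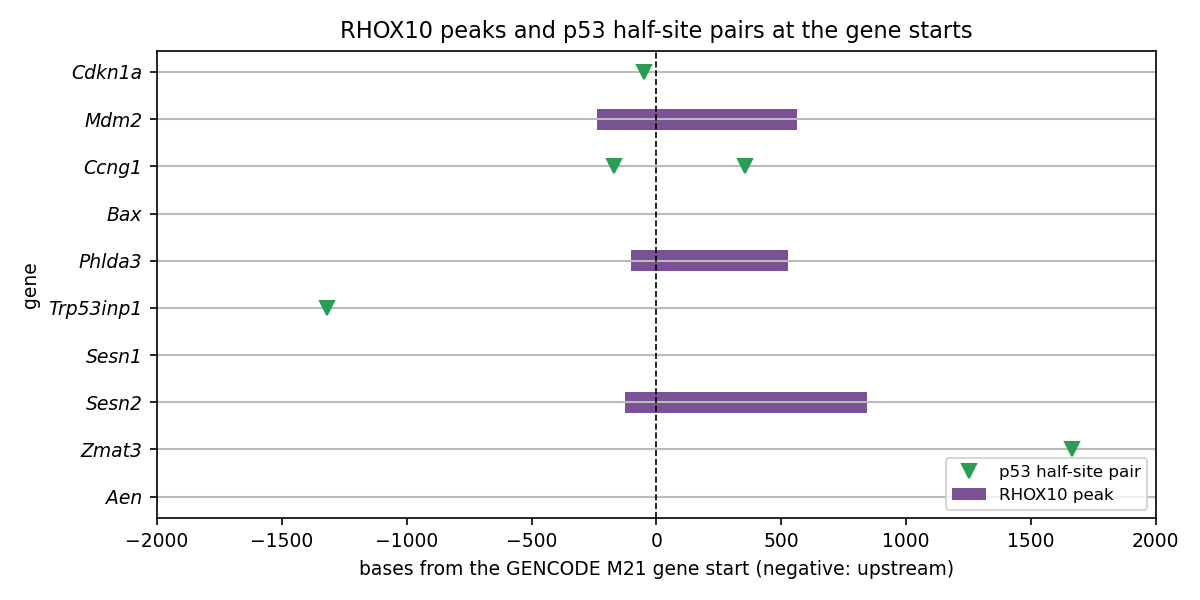
Position of RHOX10 peaks (purple bars) and of p53 response-element pairs (green triangles) along each gene, in bases from its GENCODE M21 start, negative upstream. Peaks span the starts of Mdm2, Phlda3 and Sesn2, and the p53 pairs lie at Cdkn1a, Ccng1, Trp53inp1 and Zmat3, so no gene shows both within 2 kb.

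The parts of the Sesn2 and Mdm2 peaks upstream of the gene start are printed because these peaks have the highest scores among the 3 and hold a CCAAT box, a common promoter element. CCAAT, or ATTGG on the other strand, is in capitals, and the sequences run 5′ to 3′ on the strand of the gene, which is the minus strand for both (GRCm38).
Sesn2, chr4:132510502-132510626: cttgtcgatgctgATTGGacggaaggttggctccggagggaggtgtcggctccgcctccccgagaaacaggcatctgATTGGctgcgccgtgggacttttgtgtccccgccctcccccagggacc
Mdm2, chr10:117710759-117710997: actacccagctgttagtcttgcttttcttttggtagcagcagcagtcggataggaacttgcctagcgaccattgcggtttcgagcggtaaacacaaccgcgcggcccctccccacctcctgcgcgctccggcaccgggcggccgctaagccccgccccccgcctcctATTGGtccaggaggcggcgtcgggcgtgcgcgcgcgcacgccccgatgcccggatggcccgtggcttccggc
The Sesn2 stretch of 125 bases holds 2 matches and the Mdm2 stretch of 239 bases 1, with a GC content of 64.8% and 68.2%. Neither stretch has TAAT, the core that homeobox proteins are known to bind. On either strand of the central 500 bases of a peak, TAAT was found in 44.1% of 5143 peaks on the main chromosomes, CCAAT in 45.2% and the p53 pair in 0.0778%. Over that window TAAT was present in the Sesn2 peak and absent from those of Mdm2 and Phlda3, and CCAAT was present in Sesn2 and Mdm2 and absent from Phlda3. These matches are descriptions of the letters in each window.

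Some of these counts can hold reads of a neighbour. In GENCODE M21, Cdkn1a overlaps AC167363.2 on the opposite strand, while Bax overlaps Gm45808, Sesn1 overlaps 9930024M15Rik and Sesn2 overlaps Gm12981 on the same strand. The strand setting of the counting is not given in the sources used here, so the values of these 4 genes are uncertain to that extent.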

How the data were processed

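The members and gene lists were chosen with earlier results of these data known. Both gene tables hold raw counts per gene that the authors deposited with a column for every library, per the file headers. The submitters' processing notes name STAR 2.5.2b, Subread, featureCounts, DESeq2 and GRCm38 for RNA-seq, limma 3.42.2 and mm10 for iSLAM-seq, and Bowtie2 2.2.5, SAMtools, HOMER and mm10 for CUT&Tag. Whether the iSLAM-seq counts are of all reads or of converted reads is not given in the sources used here. The authors' deposited peak table gives each peak a score.

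Counts were tested with edgeR 4.0.16 in R 4.3.3 (quasi-likelihood, TMM, filterByExpr, Benjamini-Hochberg over all genes, threshold 0.05), RNA-seq by genotype alone and iSLAM-seq as 12 group means over 24 libraries. All 10 members passed the filter in both tables. The fits were tested on simulated counts. CPM used TMM-scaled library totals. Precision is printed as an SE or SD with the values it belongs to. Alternatives were DESeq2 1.42.0, its size factors in edgeR, library totals, scaling to 16 germline genes, removal of genes above 1% of a library, no filter, a replicate block, no 0.5 h libraries, and each library left out. Named genes were all members, Trp53, Mdm4, up to 6 called genes of smallest p per list, the 5 genes most like Cdkn1a and Rhox10. Xpc and Ddit4 were also named in sorted cells, as the lower calls of their list. The tables had 0 numeric columns of no sample. Signals of the IgG and Ctrl CUT&Tag libraries were not used here.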

Additional observations from a re-analysis of the deposited data

Results flagged for a closer look

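Sesn2 in the RNA-seq libraries labelled null had its lowest value in replicate 1, whose gap to the next library was 0.838 of the group's range and above Dixon's limit for 4 samples. Among 24 groups of 4 examined, chance gives about 1 such case in 20. The difference between the vectors changed from 0 h for Mdm2 (edgeR F-test adjusted p = 0.00441) and, among listed genes, for Btg2 (3.59e-07), Plk2 (0.0218), Bbc3 (0.0265), Ppm1d (0.0280) and Ddit4 (0.0345). At 8 h against 0 h the edgeR adjusted p was 0.0275 for Mdm2, 1.43e-05 for Btg2, 0.0113 for Plk2, 0.0177 for Bbc3 and 0.0295 for Pmaip1, all toward a lower difference. Ppm1d, the phosphatase WIP1 that p53 raises and that acts against it, had 101 and 109 CPM in Ctrl and 77.2 and 93.8 CPM in Rhox10 at 0 h, and 164 and 158 CPM against 95.8 and 94.3 CPM at 8 h.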

How the results depend on the processing

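The 0 h count of 6 genes was 5 to 6 in the 24 fits that left out 1 library, and Cdkn1a at 0 h stayed between 0.90 and 0.96 in them. Other counts of called members moved as follows. In sorted cells (5 as reported) DESeq2 called 2, no filter 3, germline scaling 10, and leaving out 1 library 3 to 6. For the change from 0 h (1 of 9) germline scaling gave 0, leaving out the 0.5 h libraries 2, and leaving out 1 library 1 to 6. At 8 h against 0 h (1 of 9) library totals and germline scaling gave 0, no 0.5 h libraries 2, and leaving out 1 library 0 to 2. For the Ctrl time course (2 of 10 with Cdkn1a, whose course is a description) DESeq2 size factors gave 1 and no 0.5 h libraries 3. For the Rhox10 time course (3 of 9) no 0.5 h libraries gave 5. Fits without 1 library also moved both of these counts. The averaged 0.5 to 8 h count of 7 was 10 under germline scaling and 6 to 8 on leaving out 1 library. Peaks near 3 genes became 4 at any distance and 2 above the median score. The cause of these moves was not tested. Signs turned as follows. In sorted cells, Cdkn1a became 0.23 by library totals and 0.77 by germline scaling, Mdm2 0.079 and 0.62, and Sesn2 0.16 and 0.70. Germline scaling also turned Bax to 0.45, Phlda3 to 0.51 and Trp53inp1 to 0.38. Leaving out 1 library gave Cdkn1a -0.24 to 0.088 there. At 0 h Sesn1 became 0.20 by germline scaling, and leaving out 1 library gave Sesn1 -0.30 to 0.25 and Sesn2 -0.012 to 0.083. At 8 h against 0 h, library totals gave Ccng1 0.0018, Sesn2 0.046 and Aen 0.013, and leaving out 1 library gave Ccng1 -0.099 to 0.010, Bax -0.086 to 0.31, Sesn1 -0.0086 to 0.55, Sesn2 -0.062 to 0.060 and Aen -0.26 to 0.16. None of these turned values was a call of the report except Mdm2, Bax and Trp53inp1 in sorted cells. Over all genes, calls in sorted cells went from 5071 to 2980 with DESeq2, 7858 by library totals and 12249 by germline scaling. At 0 h they went from 2246 to 3764 without the 0.5 h libraries, and the change from 0 h from 494 to 835 with DESeq2, 1002 with no filter and 1496 without the 0.5 h libraries. Leaving out 1 library gave 1076 to 3819 at 0 h and 314 to 4331 for the change. Without the 0.5 h libraries the 8 h change went from 530 to 1355, the Ctrl time course from 1184 to 2189 (1915 with DESeq2) and the Rhox10 time course from 1948 to 4262. Replicate numbers did not pair the libraries: same-numbered deviations correlated at -0.0192 to 0.0140 over 4 RNA-seq pairs and at -0.0591 to 0.0568 over 132 iSLAM-seq pairs. With the replicate number as a block, 4 members were called in sorted cells, Bax being at adjusted p 0.0502 in edgeR (-0.44), and the block changed no other call of a member. A fit without 1 library of a pair assumes that the lone library varies like the other groups. The 12 to 38 counts of Phlda3, Cdkn1a and Bax per library limit what RNA-seq could detect for them.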
